A study of Mus musculus with 16 samples.

Results

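The genes described here mark basophils, mast cells and eosinophils. They were 9 genes taken by symbol: Prss34, Mcpt8, Cpa3, Ms4a2, Fcer1a and Cd200r3 for basophils and mast cells, and Epx, Prg2 and Prg3 for eosinophils. Of the 9 genes, 5 were matched in the stroma table of 13344 genes (Prss34, Mcpt8, Prg2, Prg3 and Epx) and 2 in the tumor table of 15080 genes (Prss34 and Prg2). Cpa3, Ms4a2, Fcer1a and Cd200r3 were not analysed here, nor were Mcpt8, Prg3 and Epx in tumor. The listed genes with values all encode granule proteins, and the listed surface receptor genes, Fcer1a, Ms4a2 and Cd200r3, have no value here.

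The RNA came from bone marrow of leukemic C57BL/6J mice, 6 to 8 weeks old, that were wild type (WT) or lacked Il6 (Il-6-/-, here IL-6 KO). All hosts had received 500000 BCR-ABL+, Arf-/- B-ALL cells by tail vein, a B-cell acute lymphoblastic leukemia line that carries mCherry from a retrovirus, and no drug treatment is named for them. On day 8 the marrow was depleted of red cells and live singlets were sorted into mCherry+ cells (tumor) and mCherry- cells (stroma), with 4 libraries for each of the 4 groups (WT stroma, IL-6 KO stroma, WT tumor, IL-6 KO tumor). The tumor cells were 1 transplanted line in both hosts, so the genotype compared is that of the host. The labels do not say that each library came from a separate animal, so the p-values measure the spread between libraries.

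Basophils, mast cells and eosinophils are rare granulocytes that arise in bone marrow from progenitors shared with neutrophils, megakaryocytes and red cells. Basophils and mast cells carry the high-affinity IgE receptor, of which Fcer1a and Ms4a2 encode the alpha and beta chains, and release histamine and proteases. Eosinophils store cationic proteins, among them eosinophil peroxidase (Epx) and the major basic proteins (Prg2 and Prg3), and the transcription factors Gata1, Gata2 and the C/EBP family take part in their formation. Prss34 and Mcpt8 encode serine proteases of basophil granules in the mouse.

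The 5 genes with values lie on 4 chromosomes of GRCm38. Prss34 is at chr17:25298394-25300165 on the plus strand with 5 exons, and Mcpt8 is at chr14:56082166-56085273 on the minus strand with 5 exons. Epx is at chr11:87864000-87875536 on the minus strand with 13 exons. Prg2 (chr2:84980461-84983632) and Prg3 (chr2:84988215-84993886) are neighbours on the plus strand of chromosome 2, with 6 exons each. None of these 5 genes had a near-identical copy, set as 97% or more of bases matching a different gene's transcript across 150 nucleotides or more, and no exon of theirs overlapped another gene. The best alignment between the transcripts of Prg2 and Prg3 had 70.7% identity over 362 nucleotides, and that between Epx and Mpo, the neutrophil peroxidase, had 71.9% over 2059 nucleotides.

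Promoter sequences, from 250 bases before to 50 bases after the RefSeq start on GRCm38.p6, were matched for 8 of the 9 genes, and are shown here for the 4 of them that have values, so that each can be read beside its values. No entry was matched for Prg2. Capitals mark GATAA, the core letters bound by GATA factors, and TATAAA, the TATA box, on either strand, so that TTATC in capitals is GATAA on the opposite strand. No GATAA overlapped a TATAAA in these sequences. Prss34 is read at chr17:25298144-25298443 (+), Mcpt8 at chr14:56085148-56085447 (-), Epx at chr11:87875487-87875786 (-) and Prg3 at chr2:84987965-84988264 (+), each 5′ to 3′ on the strand of its gene.
Prss34: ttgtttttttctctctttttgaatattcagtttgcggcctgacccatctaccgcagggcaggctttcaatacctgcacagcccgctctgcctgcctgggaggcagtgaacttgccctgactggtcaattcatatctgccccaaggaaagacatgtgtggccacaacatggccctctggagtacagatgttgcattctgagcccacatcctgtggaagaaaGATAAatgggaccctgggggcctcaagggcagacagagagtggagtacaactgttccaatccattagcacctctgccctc
Mcpt8: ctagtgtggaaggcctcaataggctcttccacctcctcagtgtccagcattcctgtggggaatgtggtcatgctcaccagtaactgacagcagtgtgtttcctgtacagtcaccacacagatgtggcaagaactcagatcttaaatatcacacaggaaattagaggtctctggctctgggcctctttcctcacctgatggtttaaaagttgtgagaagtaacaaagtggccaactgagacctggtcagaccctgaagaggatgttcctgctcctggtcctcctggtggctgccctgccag
Epx: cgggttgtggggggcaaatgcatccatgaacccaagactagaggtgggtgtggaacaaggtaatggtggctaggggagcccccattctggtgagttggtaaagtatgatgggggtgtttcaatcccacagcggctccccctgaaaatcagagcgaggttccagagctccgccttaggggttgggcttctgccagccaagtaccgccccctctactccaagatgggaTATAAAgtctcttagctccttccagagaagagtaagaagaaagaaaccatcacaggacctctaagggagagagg
Prg3: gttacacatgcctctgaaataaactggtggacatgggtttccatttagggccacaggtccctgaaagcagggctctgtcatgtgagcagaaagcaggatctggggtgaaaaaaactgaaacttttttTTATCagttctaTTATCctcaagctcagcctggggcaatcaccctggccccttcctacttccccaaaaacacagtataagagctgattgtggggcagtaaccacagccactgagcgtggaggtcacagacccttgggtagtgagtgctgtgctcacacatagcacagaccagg

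GATAA was found on either strand in 6 of the 8 promoters, and in 25.4% of all 32851 promoters of this length. In Prss34 it began 30 bases before the start, and in Prg3 it was found on the opposite strand, beginning 123 and 111 bases before the start. TATAAA was found in 3 of the 8 and in 13.6% of all promoters. In Epx it began 24 bases before the start. TTGCNNAA, a form of the C/EBP site, was found in 2 of the 8 (10.8% of all), and GAGGAA, the core of the PU.1 site, in 3 of the 8 (28.3% of all), 1 of them being Mcpt8. The motifs were chosen with the sequences in view, and the matches are of letters only and describe the windows, not bound sites.

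The tissue labels were checked against marker genes. In tumor, all 10 B lineage markers had values, and their summed normalized count was 126482 to 130431 in WT and 139024 to 142107 in IL-6 KO. In stroma the same 10 genes summed to 649 to 1495 in WT and 498 to 1467 in IL-6 KO, while 11 erythroid markers summed to 133380 to 192256 and 57859 to 244945. Of 9 mesenchymal and endothelial markers, 5 were matched in stroma, with a sum of 292 to 562 in WT and 183 to 1662 in IL-6 KO. The stroma libraries are thus, by their leading markers, mCherry- marrow with much erythroid RNA. The 2 largest genes held 39.5% to 71.6% of the normalized counts in WT stroma and 17.7% to 86.5% in IL-6 KO stroma, where library 4 stood apart, and 16.5% to 33.9% in tumor.

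In stroma, Prg2 and Prss34 were the listed genes with clear signal, and none of the 3 genes tested differed between the hosts by the test used. In bulk RNA, fewer cells of a type and less RNA per cell cannot be told apart. Prg2, which encodes the major basic protein that fills the eosinophil granule core, had normalized counts of 147, 148, 192 and 147 in WT libraries 1 to 4 and of 199.97, 306, 75.6 and 190 in IL-6 KO libraries 1 to 4. WT libraries 1, 2 and 4 were close together and library 3 was higher, while the IL-6 KO libraries were below, within and above the WT range. The difference was 0.13 on the log2(normalized count + 1) scale (IL-6 KO minus WT, SE 0.45, 95% interval -0.85 to 1.10, limma adjusted p = 0.957).

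Prss34, the basophil serine protease also called mMCP-11, had 48.2, 84.2, 38.0 and 77.0 normalized counts in the WT libraries and 120, 92.5, 44.7 and 135 in the IL-6 KO libraries. Libraries 1, 2 and 4 of the IL-6 KO hosts were above every WT library, and library 3 was among the WT values. The log2 difference was 0.62 (SE 0.52, 95% interval -0.52 to 1.75, limma adjusted p = 0.741).

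Epx, whose product makes hypohalous acids from hydrogen peroxide, was low in stroma, with 2.56, 13.3, 22.0 and 30.1 normalized counts in WT and 0, 15.1, 0 and 14.9 in IL-6 KO. It was listed at 0 in IL-6 KO libraries 1 and 3. The groups overlapped, and the log2 difference of -1.79 (SE 1.36, 95% interval -4.72 to 1.15, limma adjusted p = 0.711) was within the spread between libraries.

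Mcpt8 and Prg3 had mean normalized counts under the filter of 10 and were tested by exact permutation of the libraries. Mcpt8, a protease found in mouse basophils, had 17.3, 0, 4.33 and 7.73 in WT and 0, 0, 4.95 and 6.85 in IL-6 KO (exact two-sided permutation test, p = 0.486). Prg3, a homolog of Prg2 in eosinophil granules, had 0, 8.81, 7.17 and 15.2 in WT and 6.95, 14.6, 0 and 2.79 in IL-6 KO (exact two-sided permutation test, p = 0.657). Both genes were listed at 0 in libraries of both genotypes, and their groups overlapped.

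In all, 0 of the 3 genes tested in stroma had an adjusted p under 0.05, with 0.0082% of all 12202 genes called, and 0 of the 3 had an unadjusted p under 0.05, against 9.15% of all genes. The median log2 fold change of the 3 genes was 0.13, beside -0.013 over all genes tested. Without IL-6 KO library 3 the difference in Prss34 was 0.95 (limma adjusted p = 0.440), and without IL-6 KO library 2 that in Prg2 was -0.15 (limma adjusted p = 0.953), opposite in sign to the value with all libraries.

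Per kilobase of the longest annotated transcript, Prg2 was the highest of the 5 genes in stroma (189 ± 26.2 normalized counts per kilobase in WT and 230 ± 112 in IL-6 KO, SD, n = 4), followed by Prss34 (50.7 ± 18.2 in WT and 80.3 ± 32.5 in IL-6 KO, SD, n = 4). Mean levels of Prg3, Mcpt8 and Epx were 8.22, 7.77 and 6.32 normalized counts per kilobase in WT, and the order among these 3 was within their SDs. The mean of Prg2 stood above 67.6% of all genes of the stroma table in WT and 70.3% in IL-6 KO, and that of Prss34 above 45.7% and 54.9%.

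**Figure D1:**
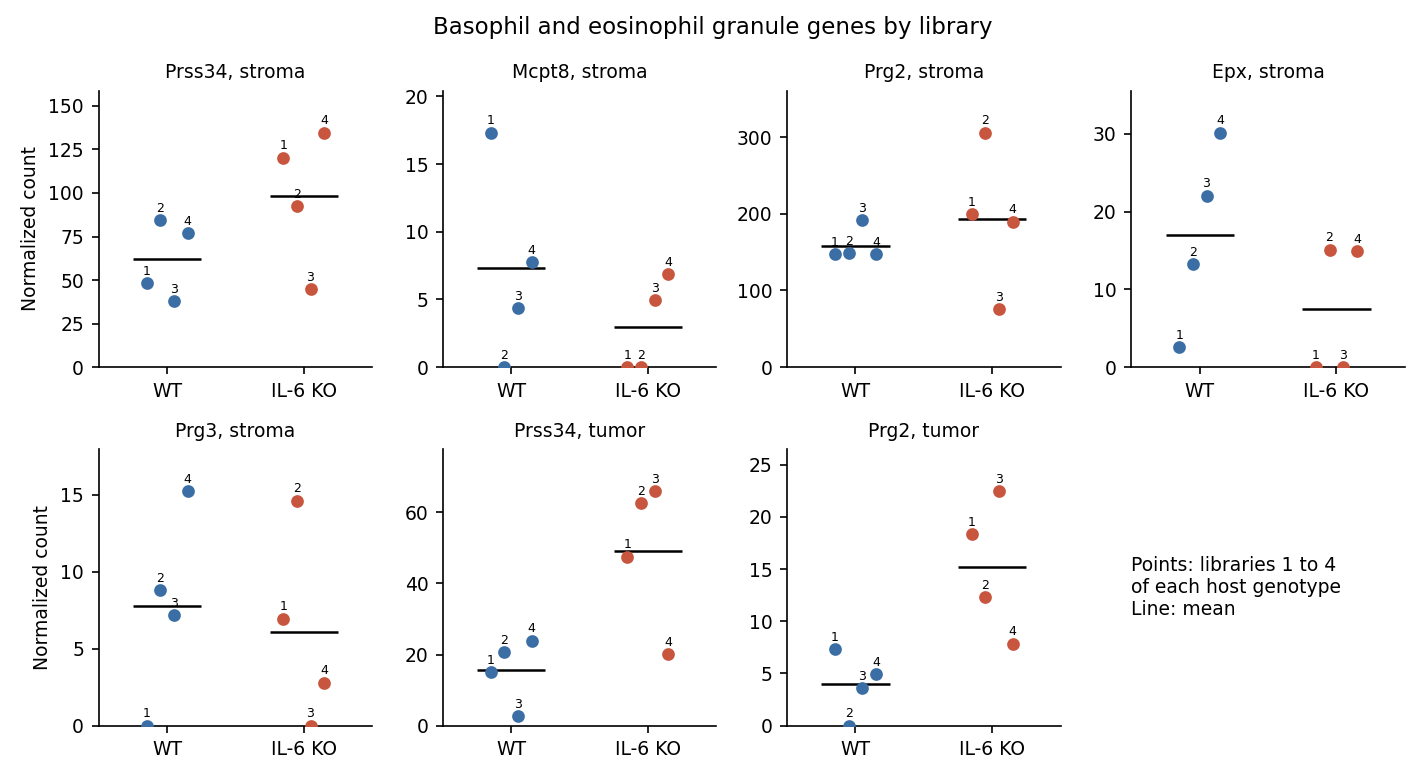
Normalized counts (vertical axes, each from 0) of the 5 listed genes in stroma and the 2 in tumor, by host genotype, with each point a library numbered 1 to 4 and each line a mean. The genotypes overlap in all 5 stroma panels and for Prss34 in tumor, where IL-6 KO library 4 (20.2) is among the WT libraries, whereas for Prg2 in tumor the IL-6 KO libraries (7.85 to 22.5) all lie above the WT libraries (0 to 7.32).

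In tumor, both genes that could be matched were low and had higher means in IL-6 KO hosts, and neither passed the test over all genes. Prss34 had 14.99, 20.6, 2.65 and 23.9 normalized counts in WT and 47.5, 62.5, 65.9 and 20.2 in IL-6 KO. IL-6 KO libraries 1 to 3 were above every WT library, and library 4 was below WT libraries 2 and 4. The log2 difference was 1.78 (SE 0.63, 95% interval 0.37 to 3.18), with an unadjusted limma p = 0.0182 and an adjusted p = 0.0739, and the exact permutation test gave p = 0.0857 (two-sided).

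Prg2 had 7.32, 0, 3.61 and 4.93 normalized counts in WT tumor and 18.3, 12.3, 22.5 and 7.85 in IL-6 KO tumor. The groups did not overlap, although the highest WT library and the lowest IL-6 KO library were close. The exact two-sided permutation test gave p = 0.0286, the smallest that 4 libraries against 4 allow, and 13.6% of all 14493 genes tested in tumor likewise had no overlap in this direction. The mean of Prg2 was under the filter of 10. When all genes of the table were fitted without the filter, its log2 difference was 1.97 (SE 0.71, limma adjusted p = 0.0780).

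So 0 of the 1 listed gene tested in tumor was called, where 19.8% of all genes were (10.6% higher and 9.16% lower in IL-6 KO), and 1 of 1 had an unadjusted p under 0.05, as did 35.1% of all genes. The median over all genes tested was -0.0059. Without WT library 3, the lowest, the difference in Prss34 fell to 1.16 (limma adjusted p = 0.114), and without IL-6 KO library 4 it was 2.15 (limma adjusted p = 0.0623). The mean of Prss34 stood above 9.2% of the genes of the tumor table in WT and 26.4% in IL-6 KO, and that of Prg2 above 0.603% and 12.6%, so the genes lie near the lower end of that table.

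The stroma and tumor tables were normalized separately, so levels were set side by side as shares and as ratios within a library, with no test. Prss34 and Prg2 together made up 42.0 ± 4.89 per 1000000 of the normalized counts outside the 2 largest genes in WT stroma and 32.3 ± 19.2 in IL-6 KO stroma (SD, n = 4). Over the total of all genes these means were 18.4 and 7.23 per 1000000, so the level in stroma and its ratio between hosts depend on the total used. In tumor the share was 0.593 ± 0.287 per 1000000 in WT and 1.79 ± 0.715 in IL-6 KO (SD, n = 4). The lowest stroma library, at 11.6 per 1000000, was above the highest tumor library, at 2.48 per 1000000. That low stroma value belonged to IL-6 KO library 4, in which 1 further gene held most of the rest of the total, and with the 3 largest genes left out the IL-6 KO stroma libraries ranged from 20.2 to 49.8 per 1000000.

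The order of the 2 genes also differed between the sorted fractions. Prss34 was below Prg2 in all 8 stroma libraries, at 0.198 to 0.709 of its normalized count. In tumor, Prss34 was above Prg2 in 7 of 8 libraries, with WT library 3 the exception at 0.734, and the highest ratio was 5.07 over the 7 libraries in which Prg2 was above 0. These ratios are taken within a library and do not depend on its scaling.

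Values of Prss34 were set beside those of erythroid genes among the tumor libraries. This gene pair was chosen after the values were seen. Hba-a1, an alpha globin, had 779, 616, 208 and 576 normalized counts in WT tumor and 524, 783, 1426 and 349 in IL-6 KO tumor. Within the IL-6 KO libraries Prss34 and Hba-a1 had the same order, and WT library 3 was the lowest for both. Over the 8 tumor libraries with genotype means removed, r between the log2 values was 0.86 (0.73 to 0.92 when 1 library at a time was left out), a description over libraries that share their normalization.

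Hba-a1 itself did not differ between the hosts beyond its spread (log2 difference 0.46, SE 0.48, limma adjusted p = 0.531). With Mpo, the peroxidase of neutrophil precursors, r of Prss34 was 0.06 (-0.47 to 0.42 with 1 library left out, 0.61 within WT and -0.58 within IL-6 KO). With Hdc, the enzyme that makes histamine, it was -0.06 (-0.63 to 0.28, with 0.22 within WT and -0.78 within IL-6 KO). Of the 8 marker lists, the mean of the 3 T and NK cell markers with values (Cd4, Nkg7 and Klrb1c) gave the highest r, 0.95 (0.95 to 0.98 with 1 library left out), followed by the 9 erythroid markers at 0.86 (0.58 to 0.91). The neutrophil precursor markers gave 0.10, which ran from -0.40 to 0.84 and was 0.91 within WT and -0.42 within IL-6 KO. The r is with a mean of log2 values, in which a low gene weighs as much as a high one, and Nkg7 was listed at 0 in at least 1 library. The T and NK cell markers summed to 544, 662, 695 and 721 normalized counts in WT libraries 1 to 4. In IL-6 KO libraries 1 to 4 they summed to 683, 539, 691 and 682. These sums did not follow the order of Prss34 in either host. Prg2 in tumor, which has a library at 0, gave r of 0.22 with Hba-a1 (0.04 to 0.80) and 0.02 with Prss34 (-0.18 to 0.66). Within WT these were -0.02 and -0.19, and within IL-6 KO 0.78 and 0.80.

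Relative to globin, Prss34 was higher in tumor than in stroma. In tumor there were 12.7 to 90.7 normalized counts of Prss34 per 1000 of Hba-a1, and in stroma 0.547 to 6.07 per 1000, so no tumor library was within the stroma range. Relative to Mpo the order was the other way, with 16.6 to 138 per 1000 in tumor and 226 to 917 per 1000 in stroma. The part that cells other than the leukemia had in the tumor values of Prss34 and Prg2 was not tested.

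**Figure D2:**
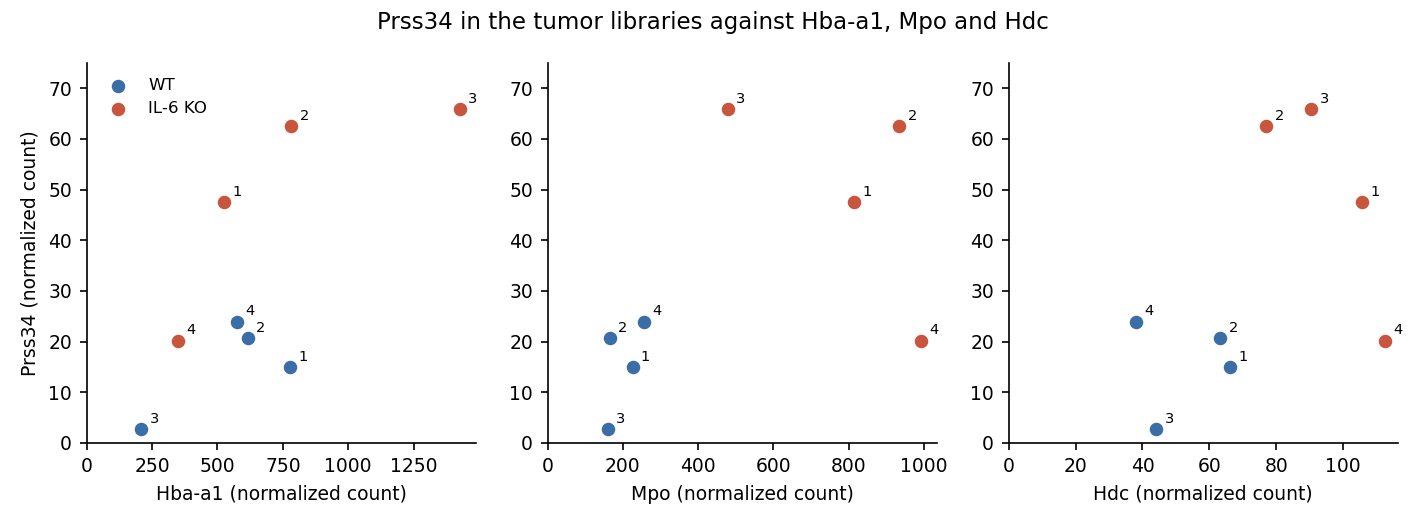
Prss34 (vertical axis, normalized counts) in the 8 tumor libraries against Hba-a1, Mpo and Hdc (horizontal axes, normalized counts from 0), blue for WT and red for IL-6 KO, with library numbers. IL-6 KO library 3 has the highest Prss34 (65.9) and Hba-a1 (1426) but the lowest Mpo of its group (479), and IL-6 KO library 4 has the lowest Prss34 of its group (20.2) with the highest Mpo (993) and Hdc (113), whereas in WT library 3 is lowest (2.65 and 159) and library 4 highest (23.9 and 257) for both Prss34 and Mpo.

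Among stroma libraries the eosinophil genes gave positive r with each other, and so did Prss34 with each of them. With genotype means removed, r over the 8 libraries was 0.68 between Prg2 and Prg3, 0.65 between Epx and Prg3 and 0.59 between Epx and Prg2, and the lowest values when 1 library was left out were 0.41, 0.50 and 0.40. Within WT these pairs gave 0.18, 0.96 and 0.36, and within IL-6 KO 0.97, 0.49 and 0.66. Prss34 gave 0.58 with Prg3 (lowest 0.24), 0.41 with Epx (lowest 0.07) and 0.50 with Prg2, but the last was -0.68 without IL-6 KO library 3, in which both genes were at their lowest of the group. Mcpt8 gave negative r with each of the other 4 genes, from -0.67 with Prg3 to -0.10 with Epx, the last reaching 0.18 when 1 library was left out. IL-6 KO library 3 also had the most Hba-a1 in stroma (81625 normalized counts, against 20579 to 71220 in the other 7 libraries). Each r rests on 8 libraries, and 3 of the genes have libraries at 0, so these are descriptions.

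The genes most like the listed ones in stroma, among 7704 other genes with a mean of at least 50, were Nat10 (r = 0.92), Rab3gap1 (0.92), Cep83 (0.91), Gpatch2l (0.90) and Cep85l (0.90) for the mean of Prss34 and Mcpt8, which gave r of -0.37 with each other. For the mean of Epx, Prg2 and Prg3 they were Gfod1 (0.99), Tyk2 (0.99), Coro7 (0.97), Lima1 (0.97) and Ptpn1 (0.97). The r is over 8 libraries with genotype means removed, and 4 genes exceeded 0.9 in the first search and 59 in the second. These are the highest of many values over few libraries and are given as a description only. The means are of log2 values, so the steps of Mcpt8, Epx and Prg3 between 0 and a few counts weigh heavily in them.

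Of 25 further basophil, mast cell and eosinophil markers, 6 were matched in tumor and 5 tested, of which 1 rose and 1 fell in IL-6 KO, where 10.6% of all tumor genes rose and 9.16% fell. Hdc, histidine decarboxylase, had 66.1, 63.3, 44.1 and 38.1 normalized counts in WT tumor and 106, 77.1, 90.5 and 113 in IL-6 KO tumor, with no overlap (log2 difference 0.88, SE 0.24, limma adjusted p = 0.0294). In this direction 13.6% of all tumor genes did not overlap. The call of Hdc was lost without any 1 of WT libraries 3 and 4 and IL-6 KO libraries 1, 3 and 4 (limma adjusted p of 0.0544 to 0.0877). Srgn, the proteoglycan serglycin on which granule proteases are packed, had 2068 to 2221 in WT and 1085 to 1548 in IL-6 KO (log2 difference -0.72, SE 0.11, limma adjusted p = 0.00308). The median over the 5 genes was -0.20.

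In stroma, 8 of these 25 markers were matched and 6 tested, with 0 called. Of all stroma genes 9.15% had an unadjusted p under 0.05, as did 1 of the 6. That gene was Hdc, at 114, 199, 176 and 307 normalized counts in WT and 348, 603, 452 and 566 in IL-6 KO. Its groups did not overlap, as was so in this direction for 2.54% of all stroma genes, and the log2 difference was 1.36 (SE 0.38, limma adjusted p = 0.347). Hdc is also made by immature neutrophils and other myeloid cells. The next by p were Lilrb4a, an inhibitory receptor (log2 difference 1.15, SE 0.76, limma adjusted p = 0.661), and Ndst2, which sulfates mast cell heparin (0.73, SE 0.66, limma adjusted p = 0.762).

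Of 16 receptors for growth and recruiting factors, 11 were tested in tumor, and 2 rose in IL-6 KO while none fell (median log2 difference 0.28), a share near the 10.6% of all tumor genes that rose, so nothing is read from it about receptors. Both encode beta chains for IL-3 and related cytokines. Csf2rb2, the mouse IL-3 specific chain, had 259 to 433 normalized counts in WT and 453 to 532 in IL-6 KO (log2 difference 0.67, SE 0.16, limma adjusted p = 0.0195). Csf2rb, the chain shared by the receptors for IL-3, IL-5 and GM-CSF, had 1217 to 1774 in WT and 1913 to 3096 in IL-6 KO (log2 difference 0.63, SE 0.17, limma adjusted p = 0.0299). Csf2rb2 was no longer called without WT library 2 or 3 or IL-6 KO library 4 (limma adjusted p of 0.0511 to 0.0557), nor Csf2rb without WT library 1, 2 or 3 or IL-6 KO library 4 (0.0527 to 0.0799).

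In stroma 12 receptors were tested, with 0 called and a median of 0.57. Of the 12, 2 had an unadjusted p under 0.05, as did 9.15% of all stroma genes. Il4ra, the IL-4 receptor alpha chain, had 26.9 to 304 normalized counts in WT and 265 to 675 in IL-6 KO (limma adjusted p = 0.461). Il1rap, a chain used by the receptors for IL-1 and IL-33, had 1.97 to 22.2 in WT and 21.1 to 63.8 in IL-6 KO (limma adjusted p = 0.527). Crlf2, of the TSLP receptor, had 36.1 to 150 in WT and 62.6 to 390 in IL-6 KO (limma adjusted p = 0.618). All 3 overlapped between the hosts.

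Of 22 genes of IgE receptor signalling, 20 were tested in tumor, and 6 rose while none fell (median log2 difference 0.15), beside 10.6% of all tumor genes higher and 9.16% lower. They include the receptor's gamma chain, Fcer1g, which other Fc receptors of myeloid cells also use, at 70.6, 61.9, 55.7 and 63.6 normalized counts in WT and 133, 172, 79.8 and 105 in IL-6 KO (log2 difference 0.90, SE 0.24, limma adjusted p = 0.0284). Lcp2, the adaptor SLP-76, had 40.3 to 54.7 in WT and 64.1 to 178 in IL-6 KO (log2 difference 1.15, SE 0.30, limma adjusted p = 0.0254). Syk, the kinase that the receptor chains recruit and that B cells also use, had 9612 to 9876 in WT and 11708 to 12629 in IL-6 KO (log2 difference 0.30, SE 0.05, limma adjusted p = 0.00554). Prkcd, a protein kinase C, and Gab2, a docking adaptor, rose by 0.33 and 0.32 on the log2 scale (SE 0.07 and 0.08, limma adjusted p = 0.0135 and 0.0218). Leaving out 1 library ended the call of Fcer1g for WT libraries 2, 3 and 4 and IL-6 KO libraries 1 and 4 (limma adjusted p of 0.0544 to 0.0802). It did so for Lcp2 with WT libraries 1 and 2 and IL-6 KO libraries 1 and 4 (0.0520 to 0.0660), and for Gab2 with libraries 3 and 4 of both hosts (0.0524 to 0.0698).

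The 20 genes of the same list tested in stroma gave 0 calls, with a median of 0.34. Of the 20, 4 had an unadjusted p under 0.05, as did 9.15% of all stroma genes. Alox5, the 5-lipoxygenase that starts leukotriene synthesis, had 140 to 242 normalized counts in WT and 276 to 480 in IL-6 KO, with no overlap (log2 difference 1.05, SE 0.36, limma adjusted p = 0.434). Fcer1g had 0, 31.5, 43.0 and 55.2 in WT and 92.4, 74.0, 108 and 113 in IL-6 KO, also with no overlap (limma adjusted p = 0.514). In this direction 2.54% of all stroma genes did not overlap. Ptgs1, cyclooxygenase 1, overlapped, with 62.2 to 464 in WT and 281 to 800 in IL-6 KO (limma adjusted p = 0.449).

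Of 22 lineage transcription factors, 19 were tested in tumor, and 5 rose while none fell (median log2 difference 0.19), with 10.6% of all tumor genes higher and 9.16% lower. Cebpa, which directs granulocyte and eosinophil formation, had 16.9, 9.87, 16.4 and 22.4 normalized counts in WT and 83.5, 98.4, 52.3 and 77.5 in IL-6 KO (log2 difference 2.20, SE 0.31, limma adjusted p = 0.00263). Cebpe, needed for late granulocyte maturation, had 7.24 to 29.2 in WT and 37.8 to 162 in IL-6 KO (log2 difference 2.36, SE 0.53, limma adjusted p = 0.0145). Irf8 rose by 0.38, Stat5a by 0.60 and Stat5b by 0.24 on the log2 scale, with limma adjusted p = 0.0115, 0.0343 and 0.0388, and B cells express all 3 as well. Stat5a lost its call without WT library 3 or 4 or IL-6 KO library 1, 2 or 4 (limma adjusted p of 0.0531 to 0.0934), and Stat5b without any 1 WT library or IL-6 KO library 1 or 4 (0.0548 to 0.0888).

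In stroma 21 factors were tested, with 0 called and a median of 0.22. Of the 21, 5 had an unadjusted p under 0.05, as did 9.15% of all stroma genes. Zfpm1, the GATA partner FOG-1 of red cells and megakaryocytes, had 1815 to 3849 normalized counts in WT and 735 to 1152 in IL-6 KO, with no overlap (log2 difference -1.34, SE 0.32, limma adjusted p = 0.302). In that direction 3.25% of all stroma genes did not overlap. Cebpa had 62.4, 63.4, 69.3 and 87.4 in WT and 187, 221, 93.6 and 327 in IL-6 KO, with no overlap (limma adjusted p = 0.432). In the upward direction 2.54% of all stroma genes did not overlap. Xbp1, a factor of secretory cells, had 196 to 433 in WT and 458 to 854 in IL-6 KO (limma adjusted p = 0.461).

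Of 25 paralogs and neighbours in the loci of the listed genes, 4 were tested in tumor, and 3 rose while none fell (median log2 difference 2.20), against 10.6% of all tumor genes higher. Mpo, the paralog of Epx, had 226, 165, 159 and 257 normalized counts in WT and 815, 935, 479 and 993 in IL-6 KO (log2 difference 1.97, SE 0.24, limma adjusted p = 0.00161). Ctsg, cathepsin G, which lies in the granule protease cluster with Mcpt8, had 14.5 to 21.3 in WT and 43.9 to 169 in IL-6 KO (log2 difference 2.43, SE 0.38, limma adjusted p = 0.00385). Ms4a3, of the same family as Ms4a2, had 0.83 to 7.10 in WT and 14.7 to 44.8 in IL-6 KO (log2 difference 2.85, SE 0.57, limma adjusted p = 0.00951). All 3 are also on the list of neutrophil precursor markers.

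In stroma 6 of these genes were tested, with 0 called and a median of 0.15. Of the 6, 1 had an unadjusted p under 0.05, as did 9.15% of all stroma genes. Ms4a3 had 0.827, 2.03, 3.18 and 2.45 normalized counts in WT and 27.7, 5.54, 12.9 and 66.1 in IL-6 KO, with no overlap (limma adjusted p = 0.480). In this direction 2.54% of all stroma genes did not overlap. Ms4a6b and Ms4a6c overlapped between the hosts and were each listed at 0 in at least 1 IL-6 KO library (limma adjusted p = 0.658 and 0.876).

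**Figure D3:**
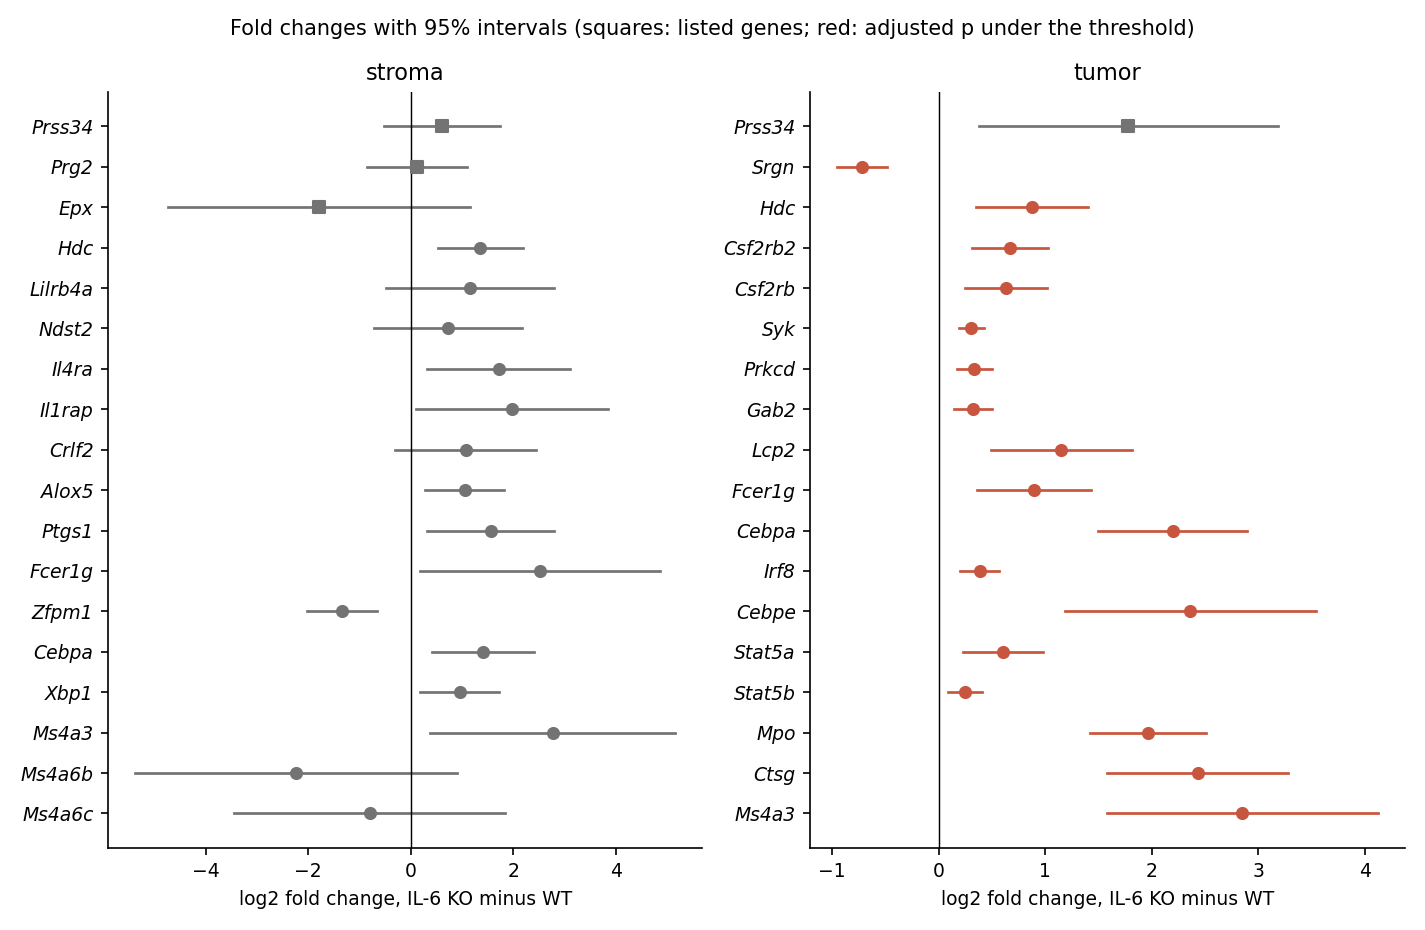
Log2 fold change (IL-6 KO minus WT, horizontal axes) with its 95% interval for each tested listed gene (squares) and the genes named from the related lists (circles), in stroma and in tumor, in red where the adjusted p was under 0.05. In stroma 0 of the intervals is red, and in tumor Srgn (-0.72) is the red gene on the lower side while Prss34 (1.78) has a wide interval and is grey.

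**Figure D4:**
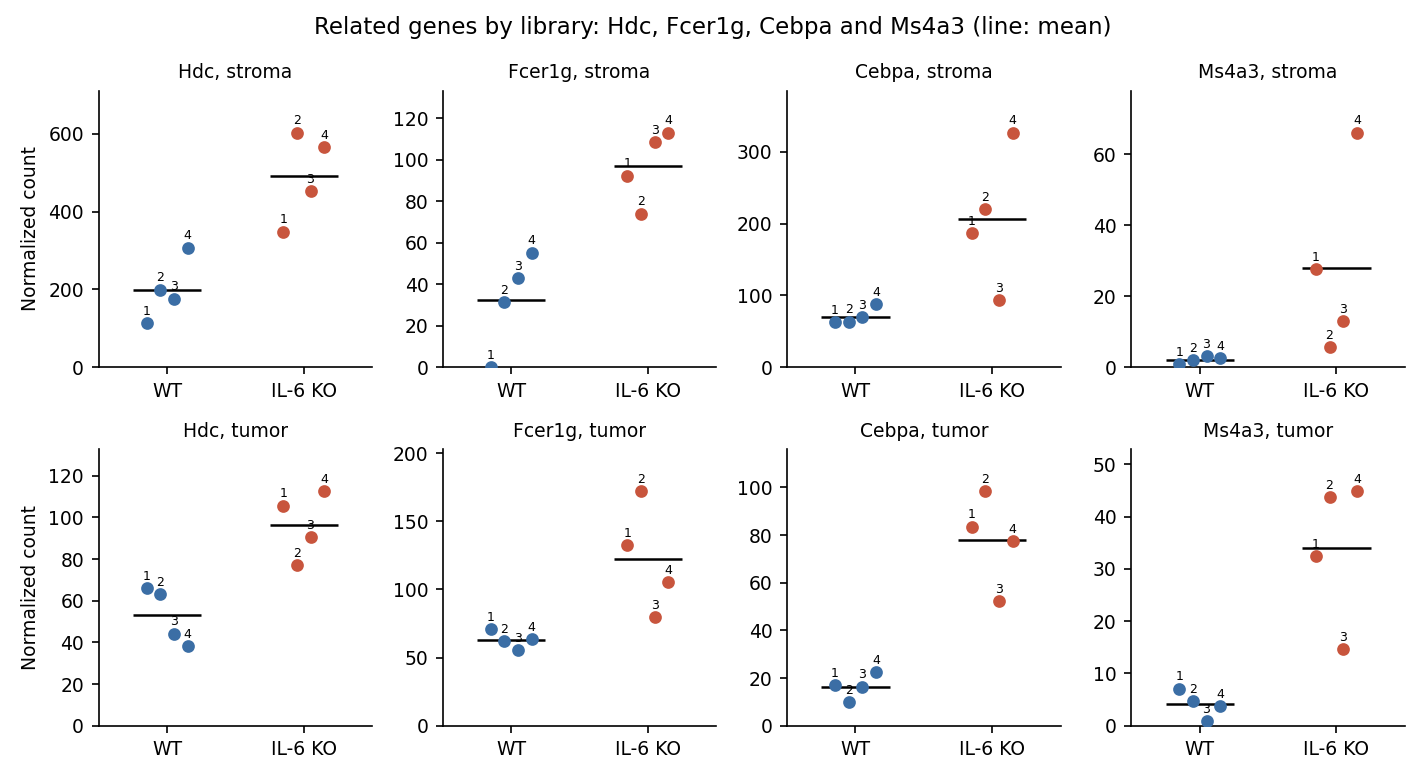
Normalized counts (vertical axes, each from 0) of Hdc, Fcer1g, Cebpa and Ms4a3 by host genotype in stroma (top) and tumor (bottom), with each point a library numbered 1 to 4 and each line a mean. The IL-6 KO points lie above all WT points in all 8 panels. The 4 genes were called in tumor, where 19.8% of all genes were, and not in stroma, where 0.0082% were. The stroma log2 differences were 1.36 (SE 0.38) for Hdc, 2.52 (SE 1.08) for Fcer1g, 1.42 (SE 0.46) for Cebpa and 2.77 (SE 1.10) for Ms4a3. The 4 genes are those named in both compartments by their p in these data, so their separation follows in part from that choice. Of all genes tested, 2.54% in stroma and 13.6% in tumor had no overlap in this direction.

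Myeloid markers were among the genes called higher in IL-6 KO tumor, where 10.6% of all genes rose and 9.16% fell. Their r with the listed genes differed between the hosts. With genotype means removed, r of Prss34 with the neutrophil precursor, mature neutrophil and monocyte and macrophage markers was 0.10, 0.12 and -0.25. Within WT these values were 0.91, 0.85 and -0.60, and within IL-6 KO -0.42, -0.35 and 0.12. For Prg2 r was -0.19, -0.11 and 0.29. Within WT it was 0.21, 0.32 and 0.54, and within IL-6 KO -0.68, -0.59 and 0.01. Each r within a host rests on 4 libraries. Of 9 neutrophil precursor markers tested, 7 rose and none fell, and their sum was 395 to 522 normalized counts in WT and 984 to 2137 in IL-6 KO, with Nkg7 listed at 0 in at least 1 library. Of 14 mature neutrophil markers, 10 rose and none fell (summed 4870 to 5484 in WT and 7678 to 18791 in IL-6 KO, with none at 0), and of 12 monocyte and macrophage markers, 4 rose and none fell (summed 3540 to 4116 and 5051 to 8605, with none at 0). Of 9 erythroid markers none rose and 1 fell (summed 13157 to 15963 and 13483 to 16354). The part of neutrophils and monocytes in the differences of Hdc, Fcer1g, Cebpa and the other genes called in tumor was not tested.

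In stroma the same lists gave 0 calls. The neutrophil precursor markers summed to 471 to 844 normalized counts in WT and 425 to 2213 in IL-6 KO, the mature neutrophil markers to 8356 to 16260 and 8698 to 35644, and the monocyte and macrophage markers to 882 to 1536 and 1283 to 2860, all with overlap. Markers listed at 0 in at least 1 stroma library included Nkg7, Ccr2, Mrc1, Vcam1, C1qa, Dntt, Cd4 and Kdr. Among the listed genes in stroma, r of Prss34 with the mean of the mature neutrophil markers was 0.78 and that of Prg2 was 0.78, falling to 0.38 and -0.13 without IL-6 KO library 3. Such values were not particular to neutrophils. The monocyte and macrophage markers gave 0.72 with Prss34 and 0.69 with Prg2. The T and NK cell list, with 1 gene past the filter, gave 0.86 and 0.38. The T and NK cell markers, 2 of 10 matched in stroma (Cd4 and Nkg7), summed to 6.49 to 44.8 in WT and 0 to 22.4 in IL-6 KO.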

How the data were processed

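RNA of sorted mCherry+ and mCherry- marrow cells was sequenced by the authors after ribosomal RNA depletion with a strand-specific kit. Per the submitters' processing notes and the study's methods, abundance was estimated with Salmon 1.3.0 on mm10 and scaled with DESeq2 1.28.1. The authors deposited these normalized counts (signal values on a linear scale) in 1 table per compartment, and their sums are scaled totals from which read depth is unknown. At most 15.1% of the low values of a library fell on a shared step, so whole reads were not recovered. The authors' tables of their own comparison, which hold fold changes, test statistics and p-values, were not used.

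Normalized counts were tested as log2(normalized count + 1) with limma 3.58.1 (trend, R 4.3.3) on genes with a mean over 10, genotype as the only term, each compartment alone, two-sided, Benjamini-Hochberg over all genes, threshold 0.05. Genes under the filter were tested by exact permutation over 70 assignments. The fits were tested on simulated data. Positions came from GENCODE vM21, promoters from RefSeq, copies from BLAST 2.17.0.

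The listed genes and the gene lists were chosen with earlier results of these data known. Named were the 9 listed genes, from each of 5 related lists and compartment up to 5 genes called by smallest p or, with none called, the 3 with the smallest p, and the 5 genes most like each group. Hba-a1 and the ratios were chosen after their values were seen. Where a symbol had 2 rows (Lilrb4a), the row with the higher mean was used. Alternatives are given in the closing section.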

Additional observations from a re-analysis of the deposited data

Results flagged for a closer look

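In groups of 4 libraries, a library was noted when its gap to the nearest other library exceeded Dixon's 95% critical share of the range of its group, which chance alone gives in about 1 in 20 groups. Of 78 groups checked for the named genes, 7 were noted. Among the listed genes this was Prg2 in WT stroma, where library 3 had 192 normalized counts and the other 3 had 147 to 148. In stroma, Ms4a6b in IL-6 KO library 4 (24.7 normalized counts) and Ms4a6c in WT library 1 (3.28 normalized counts) stood apart. In tumor, IL-6 KO library 2 was the highest for Csf2rb (3096 normalized counts), Syk (12629) and Prkcd (4350), and WT library 3 was the highest for Syk (9876). These are values with no explanation tested.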

How the results depend on the processing

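The count of listed genes called was 0 in stroma and in tumor under every alternative run for it, and at a mean over 50 no listed gene was left to test in tumor. The median log2 fold change of the listed genes in stroma ranged from -0.37 to 0.52 over the alternatives, with values on both sides of 0. With 1 library left out it ranged from -0.15 to 0.52. In tumor the range was 1.45 to 2.24 (1.60 to 2.15 with 1 library left out). The genes tested changed with the setting, so these medians are not all of the same genes. In stroma 3 were tested in the main fit and 5 with no filter, which gave -0.37. In tumor the main fit tested Prss34 alone, and with no filter Prg2 was added. The difference of Prss34 in tumor ranged from 1.16 to 2.24, with limma adjusted p of 0.0581 to 0.154. Direction changed for Prg2 in stroma without IL-6 KO replicate 2 (-0.15), for Ndst2 with array weights (-0.0022) and for Ms4a6c without IL-6 KO replicate 3 (0.33, the other end of its range with 1 library left out being -1.51). The r of Rab3gap1 and Cep85l was 0.76 and 0.80 with a pseudocount of 5. Over the total of all genes, the share of Prss34 and Prg2 in stroma was 18.4 per 1000000 in WT and 7.23 in IL-6 KO. Leaving out the 3 largest genes, chosen after seeing the data, gave 42.0 and 40.9 per 1000000.

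Same-numbered libraries did not deviate together (r of -0.029 to 0.126 in stroma and -0.019 to -0.00028 in tumor), so the numbers were not taken as pairs. With the replicate number as a block, 0 listed genes were called in either compartment, Prss34 in tumor had an adjusted p of 0.118, and Hdc, Csf2rb, Gab2, Lcp2 and Stat5b in tumor were no longer called. With 1 library left out, at least 1 fit lost the call of Hdc (adjusted p up to 0.0877), Csf2rb, Csf2rb2, Fcer1g, Gab2, Lcp2, Stat5a and Stat5b. Srgn, Syk, Prkcd, Cebpa, Cebpe, Irf8, Mpo, Ctsg and Ms4a3 were called in tumor in each of the alternatives run for them. Read depth is unknown from these values, so its limit on the listed genes could not be given.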
